A study of Arabidopsis thaliana with 12 samples.

Results

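Cytochrome P450 genes were followed through seedlings that express a seed regulator, with and without sucrose in the medium. The members are the probe sets that the array's probe table assigns to 1 gene with a P450 symbol, that is CYP, a family number and a subfamily letter. There were 23 such genes among 13513 probe sets with 1 gene, each read by 1 probe set, and all 23 were matched to a locus in RefSeq. They are a part of the P450 complement, since 236 loci in RefSeq carry such a symbol and the others were not analysed here. Of the 23, 19 belong to subfamily CYP71B, and the other 4 are CYP51G2, CYP78A9, CYP79A2 and CYP84A4, each alone in its family.

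P450 enzymes are haem-containing monooxygenases that insert oxygen into small molecules, mostly at the endoplasmic reticulum and with electrons from a reductase. Plants hold very large P450 families. The enzymes make sterols, hormones, lignin precursors, surface lipids and defence compounds, and tandem copies of the same subfamily are common. The CYP71 family serves mainly in specialised metabolism. CYP71B15, a member of the same subfamily that was not analysed here, closes the ring of the indole defence compound camalexin.

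The samples were whole Arabidopsis thaliana seedlings 8 days old, in 4 groups of 3 arrays that the labels call biological replicates. FUS3 with sucrose and FUS3 without sucrose are line 2-8, in which an estradiol-responsive promoter drives the B3-domain transcription factor FUSCA3, a regulator of seed maturation. WT with sucrose and WT without sucrose are the wild type. The sucrose concentration was 1.5%, and 5 µM estradiol is named for the medium of line 2-8. Whether WT also received estradiol is not settled by the labels, so a FUS3 effect here is that of 1 line under inducing conditions against WT. FUS3's own transcript was not analysed here, since none of the named probe sets is assigned to it. The question was how FUS3, sucrose and their combination change transcript levels.

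Signals were MAS5 intensities from ATH1 arrays, 1 value per probe set and array, and array medians lay between 375 and 443. Differences are on the scale of log2(signal + 16), which understates changes of genes with low signal, and a gene was called at an adjusted p under 0.05 in limma over all 22746 probe sets. The number of arrays limits the precision. All 5 measured seed and embryo markers of 10 listed rose in FUS3 at both sucrose levels, with a summed signal of 96659 to 103161 in FUS3 with sucrose, against 107 to 158 in WT with sucrose. Without sucrose the same sum was 7925 to 8978 in FUS3, against 147 to 186 in WT. The 5 measured leaf photosynthesis markers of 8 fell in FUS3 with sucrose, to a sum of 74654 to 80341 against 138611 to 142837 in WT with sucrose. Without sucrose that sum was 157346 to 165891 in FUS3, against 151006 to 164751 in WT, and 1 of the 5, SBPASE, was called higher (log2 difference 0.33, SE 0.08, adjusted p = 0.00946). The 3 measured root markers of 6 rose in FUS3 at both sucrose levels, the sum being 2094 to 2651 in FUS3 with sucrose against 1181 to 1330 in WT with sucrose, and 1061 to 1614 in FUS3 without sucrose against 735 to 929 in WT without sucrose. Of 3 guard cell lineage markers, all measured, FAMA alone was called lower in FUS3 against WT with sucrose. There SPCH had a log2 difference of 0.15 (SE 0.22) and MUTE -0.21 (SE 0.24). The sum of the 3 was 390 to 523 in FUS3 with sucrose, against 767 to 848 in WT with sucrose. Without sucrose that sum was 852 to 1007 in FUS3, against 1055 to 1227 in WT, and no member was called. The trichome marker TRY, 1 of 2 listed, read 14.2 to 36.1 in FUS3 with sucrose, against 95.0 to 132 in WT with sucrose. The anther marker A9 was at or below 17.2 on every array, and none of 3 xylem markers was measured. The part these shifts play in the P450 results was not tested. In whole seedlings, fewer cells of a type and less RNA per cell cannot be told apart.

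Across the whole set, P450 genes moved in both directions. In FUS3 against WT with sucrose 9 of the 23 (39.1%) were called, 3 higher and 6 lower. Of all probe sets 38.5% were called in that comparison, 18.9% higher and 19.6% lower, and the medians were -0.14 for the 23 and 0.01 for all. Among the 23 are 7 with little signal, named further below. Without sucrose 5 (21.7%) were called in FUS3 against WT, 2 higher and 3 lower, against 16.5% of all probe sets, 9.50% higher and 7.03% lower. Sucrose against none in FUS3 gave 9 calls (39.1%), 4 higher and 5 lower, against 39.3% of all probe sets, 21.8% higher and 17.5% lower. In WT it gave 5 calls (21.7%), 3 higher and 2 lower, against 26.0% of all probe sets, 15.9% higher and 10.1% lower. The interaction, which is the FUS3 effect with sucrose minus that without, was called for 3 genes (13.0%), 1 positive and 2 negative, against 23.1% of all probe sets, 9.78% positive and 13.3% negative. In total 13 of the 23 (56.5%) were called in at least 1 of the 4 pairwise comparisons, as were 56.7% of all probe sets. Without any 1 of the 3 arrays of FUS3 without sucrose, or replicate 2 or 3 of WT without sucrose, 3 genes were called in FUS3 against WT without sucrose. Without replicate 2 of FUS3 without sucrose or replicate 1 of WT with sucrose, 5 were called for the interaction. The shares of all probe sets called without those arrays are not given, so these counts show nothing particular to P450 genes. The split of the sucrose calls depended on scaling, as given at the end.

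**Figure D1:**
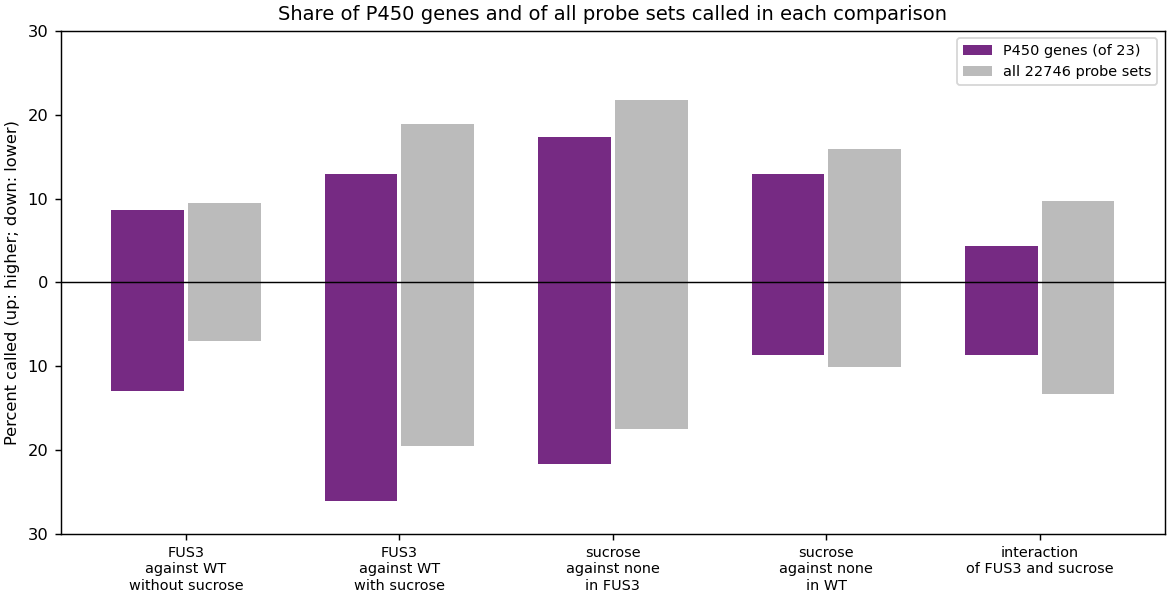
Percent of the 23 P450 genes and of all 22746 probe sets called at an adjusted p under 0.05 in each of the 5 comparisons, higher calls upwards and lower calls downwards. In FUS3 against WT with sucrose 26.1% of P450 genes and 19.6% of all probe sets were called lower. There 13.0% and 18.9% were called higher, and 39.1% and 38.5% were called in either direction.

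The sterol gene CYP51G2 (AT2G17330, chromosome 2) rose with FUS3 at both sucrose levels. CYP51 enzymes remove a methyl group from the sterol nucleus, an early step towards membrane sterols and brassinosteroids, and RefSeq annotates this copy as a transcribed pseudogene. Its signals were 198, 152 and 175 in FUS3 with sucrose, 91.8, 145 and 99.5 in FUS3 without sucrose, 59.5, 67.5 and 75.6 in WT with sucrose, and 62.8, 55.9 and 45.9 in WT without sucrose. Every FUS3 array lay above every WT array, and the mean of WT without sucrose, 54.9, lay just below 55.6, the lowest first quartile of any array. The log2 difference between FUS3 and WT was 1.19 (SE 0.20, adjusted p = 3.06e-04) with sucrose and 0.84 (SE 0.20, adjusted p = 0.0115) without. The call without sucrose was lost when replicate 2 of FUS3 without sucrose was left out (adjusted p = 0.0580). Sucrose raised it in FUS3 by 0.59 (SE 0.20, adjusted p = 0.0315), while in WT the difference was 0.24 (SE 0.20, adjusted p = 0.449). The sucrose call in FUS3 was lost with array medians subtracted (adjusted p = 0.0979), with quantile normalization (0.108) and without replicate 1 or 3 of FUS3 without sucrose or replicate 1 or 3 of FUS3 with sucrose (0.0744 to 0.115). That call was also lost with 1 added before log2 (0.0574) and with the compared arrays alone (0.0526).

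CYP84A4 (AT5G04330, chromosome 5), which takes part in the synthesis of arabidopyrones, stood highest in WT without sucrose. It read 164, 164 and 133 in FUS3 with sucrose, 150, 184 and 137 in FUS3 without sucrose, 156, 135 and 143 in WT with sucrose, and 230, 212 and 239 in WT without sucrose. The 3 arrays of WT without sucrose exceeded all 9 others, and those other groups overlapped. Sucrose against none lowered it in WT, with a log2 difference of -0.60 (SE 0.16, adjusted p = 0.0125), whereas in FUS3 the difference was -0.02 (95% interval -0.36 to 0.32). FUS3 against WT was called lower without sucrose at -0.50 (SE 0.16, adjusted p = 0.0483). That call stood at the threshold: it was lost in 14 of 19 alternatives, including leaving out any array except replicate 2 of FUS3 without sucrose (adjusted p = 0.0512 to 0.146). With sucrose the difference was 0.08 (SE 0.16, adjusted p = 0.742), and the interaction was 0.58 (SE 0.23, adjusted p = 0.0833). The interaction was called without replicate 2 of FUS3 without sucrose (adjusted p = 0.0490) and with no variance trend (0.0361). Of 13 other phenylpropanoid and lignin genes on the list, only HCT, for a hydroxycinnamoyl transferase, was measured. HCT fell with sucrose in FUS3 (log2 difference -0.30, SE 0.08, adjusted p = 0.00821) and was not called in WT, at 0.07 (SE 0.08, adjusted p = 0.600). Its interaction was called at -0.36 (SE 0.11, adjusted p = 0.0299). FUS3 against WT with sucrose was -0.21 for HCT (SE 0.08, adjusted p = 0.0507).

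CYP79A2 (AT5G05260, chromosome 5), which turns phenylalanine into its oxime for benzylglucosinolate, gave almost no signal. It read 1.79, 46.0 and 3.30 in FUS3 with sucrose, 2.91, 14.0 and 2.12 in FUS3 without sucrose, 1.86, 1.61 and 1.33 in WT with sucrose, and 2.07, 1.91 and 2.23 in WT without sucrose. The reading of 46.0 came from 1 array, and no comparison called the gene. Of 19 glucosinolate genes outside the P450 families 3 were measured. They were BCAT4, an aminotransferase of methionine chain elongation, GSTU20, a glutathione transferase tied to aliphatic glucosinolates, and UGT74B1, the glucosyltransferase of the core pathway. All 3 were called lower in FUS3 than in WT with sucrose, as were 19.6% of all probe sets. All 3 were called higher with sucrose in WT, as were 15.9% of all probe sets. In FUS3 the sucrose difference was 0.003 for UGT74B1 (SE 0.11, adjusted p = 0.985), -0.34 for GSTU20 (SE 0.09) and -0.41 for BCAT4 (SE 0.10). The interaction was called for all 3, at -0.88 (UGT74B1), -1.34 (GSTU20) and -1.27 (BCAT4). Of all probe sets 13.3% had a called negative interaction. BCAT4 averaged 3517 ± 616 in FUS3 with sucrose and 9186 ± 651 in WT with sucrose (SD, n = 3 each), a log2 difference of -1.39 (SE 0.10, adjusted p = 1.00e-07). GSTU20 and UGT74B1 differed by -0.94 (SE 0.09) and -0.73 (SE 0.11) in that comparison. Without sucrose GSTU20 rose in FUS3 by 0.40 (SE 0.09, adjusted p = 0.00728), and the other two had 0.15 (UGT74B1, SE 0.11) and -0.12 (BCAT4, SE 0.10).

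CYP78A9 (AT3G61880, chromosome 3) belongs to a family that promotes growth of floral organs, fruits and seeds. Its signals were 100.7, 114 and 138 in FUS3 with sucrose, 172, 112 and 151 in FUS3 without sucrose, 183, 169 and 167 in WT with sucrose, and 160, 184 and 199 in WT without sucrose. With sucrose the FUS3 arrays lay below the WT arrays, and without sucrose they overlapped. FUS3 against WT was -0.51 with sucrose (SE 0.18, adjusted p = 0.0390) and -0.31 without (SE 0.18, adjusted p = 0.294). The call was lost when any 1 of 5 arrays was left out, namely replicate 1 or 2 of FUS3 with sucrose or any replicate of WT with sucrose (adjusted p = 0.0706 to 0.137).

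Most CYP71B genes measured lie in one tandem row on chromosome 3. In RefSeq's gene order the row runs over 24 genes from CYP71B16 (AT3G26150) to CYP71B37 (AT3G26330), of which 18 have P450 symbols and 11 are members. The first stretch of the row ends in CYP71B22, CYP71B23 and CYP71B24, which lie next to each other except for CYP71B3. All 3 were called lower in FUS3 against WT with sucrose, where 19.6% of all probe sets were called lower. Without sucrose CYP71B22 alone of them was called. The stretch also holds CYP71B16 and CYP71B21, which had little signal and were not called. Their differences with sucrose were 0.54 (SE 0.35) and 0.02 (SE 0.37). Whether neighbours change together was not tested. Probe sets of near-identical tandem copies can pick up each other's transcripts. Whether they did here was not tested.

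CYP71B22 (AT3G26200) had the largest difference between FUS3 and WT with sucrose among the 23 genes. It read 67.1, 41.4 and 49.0 in FUS3 with sucrose, 135, 95.5 and 205 in FUS3 without sucrose, 419, 534 and 760 in WT with sucrose, and 390, 404 and 390 in WT without sucrose. No group overlapped another, and both FUS3 groups lay below both WT groups. FUS3 against WT with sucrose gave a log2 difference of -3.08 (SE 0.25, adjusted p = 2.83e-07). The mean of FUS3 with sucrose, 52.5, lay below the first quartile of the array with the lowest one (55.6), so the size of that difference is uncertain. Without sucrose the difference was -1.41 (SE 0.25, adjusted p = 0.00165). Sucrose lowered the gene in FUS3 (log2 difference -1.19, SE 0.25, adjusted p = 0.00161), while in WT its difference was 0.47 (SE 0.25, adjusted p = 0.198). The interaction was -1.67 (SE 0.36, adjusted p = 0.00349). All of these calls held in every alternative that keeps the gene. Leaving out the lowest 40% of probe sets removes CYP71B22.

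CYP71B23 (AT3G26210) gave 411, 420 and 424 in FUS3 with sucrose, 475, 625 and 720 in FUS3 without sucrose, 705, 1202 and 999 in WT with sucrose, and 746, 623 and 781 in WT without sucrose. FUS3 with sucrose was below all other arrays, and the other 3 groups overlapped one another. In FUS3 against WT the difference was -1.15 with sucrose (SE 0.18, adjusted p = 1.39e-04), and -0.25 without (SE 0.18, adjusted p = 0.403). The interaction was -0.90 (SE 0.25, adjusted p = 0.0185), a call lost without replicate 2 of WT without sucrose (adjusted p = 0.0506). Sucrose lowered the gene in FUS3 (log2 difference -0.50, SE 0.18, adjusted p = 0.0380), a call lost without replicate 2 or 3 of FUS3 without sucrose or any replicate of FUS3 with sucrose (0.0760 to 0.158). That call was also lost with no variance trend (0.0680). In WT the sucrose difference was 0.40 (SE 0.18, adjusted p = 0.122), and it was called higher without replicate 1 of WT with sucrose (0.0149).

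CYP71B24 (AT3G26230) read 95.9, 63.8 and 84.2 in FUS3 with sucrose, 103, 79.9 and 83.9 in FUS3 without sucrose, 187, 200 and 321 in WT with sucrose, and 125, 145 and 167 in WT without sucrose. All 6 FUS3 arrays lay below all 6 WT arrays, and the FUS3 groups overlapped each other. The difference between FUS3 and WT was -1.35 with sucrose (SE 0.22, adjusted p = 2.18e-04). Without sucrose it was -0.62 (SE 0.22, adjusted p = 0.0741), and it was called with quantile normalization (0.0209), with array medians subtracted (0.0498) and without replicate 3 of WT with sucrose (0.0455). The sucrose difference in WT, 0.61 (SE 0.22, adjusted p = 0.0564), was called without replicate 1 of WT with sucrose (0.0418).

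Further along the row the genes did not share a direction. CYP71B26 (AT3G26290) changed sides with sucrose. It read 1596, 1558 and 1626 in FUS3 with sucrose, 1021, 968 and 1026 in FUS3 without sucrose, 1113, 1264 and 1444 in WT with sucrose, and 1702, 1622 and 1667 in WT without sucrose. FUS3 with sucrose and WT without sucrose overlapped, and no other pair of groups did. The order from highest to lowest mean was WT without sucrose, FUS3 with sucrose, WT with sucrose and FUS3 without sucrose. FUS3 against WT was 0.33 with sucrose (SE 0.09, adjusted p = 0.00811) and -0.72 without (SE 0.09, adjusted p = 7.70e-05). Sucrose raised the gene in FUS3 by 0.66 (SE 0.09, adjusted p = 3.03e-05) and lowered it in WT (log2 difference -0.39, SE 0.09, adjusted p = 0.00418). The interaction was 1.05 (SE 0.12, adjusted p = 2.82e-05), and all 5 calls held in every alternative tried.

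CYP71B37 (AT3G26330), the last gene of the row, was highest where FUS3 and sucrose came together. Its signals were 1026, 943 and 1067 in FUS3 with sucrose, 335, 333 and 335 in FUS3 without sucrose, 339, 441 and 266 in WT with sucrose, and 294, 152 and 154 in WT without sucrose. FUS3 with sucrose stood above all other arrays, while WT with sucrose overlapped both groups without sucrose. In FUS3 against WT the difference was 1.52 with sucrose (SE 0.22, adjusted p = 6.24e-05) and 0.76 without (SE 0.22, adjusted p = 0.0272). Sucrose raised it by 1.55 in FUS3 (SE 0.22, adjusted p = 4.73e-05) and by 0.79 in WT (SE 0.22, adjusted p = 0.0145). The interaction was not called at 0.76 (SE 0.31, adjusted p = 0.0899), but was without replicate 2 of WT with sucrose (0.0400). The call of FUS3 against WT without sucrose was lost when any replicate of FUS3 without sucrose or replicate 2 or 3 of WT without sucrose was left out (0.0627 to 0.110), and with quantile normalization (0.0528). That call was also lost with no variance trend (0.0559) and with the compared arrays alone (0.0597). The sucrose call in WT was lost with quantile normalization (0.0594), with the compared arrays alone (0.0690) and without replicate 2 or 3 of WT without sucrose or replicate 2 of WT with sucrose (0.0670 to 0.0681).

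CYP71B36 (AT3G26320), the neighbour of CYP71B37, moved the opposite way. It read 36.8, 46.0 and 33.4 in FUS3 with sucrose, 103, 134 and 146 in FUS3 without sucrose, 59.2, 132 and 92.8 in WT with sucrose, and 172, 103 and 149 in WT without sucrose. FUS3 with sucrose was the lowest group, with a mean of 38.7 that lies below 55.6 as well, and overlapped no other. The other 3 groups overlapped one another. The difference between FUS3 and WT was -0.97 with sucrose (SE 0.26, adjusted p = 0.00817) and -0.12 without (SE 0.26, adjusted p = 0.816). Sucrose lowered it in FUS3 (log2 difference -1.38, SE 0.26, adjusted p = 6.23e-04). In WT the sucrose difference was -0.54 (SE 0.26, adjusted p = 0.153), which was called without replicate 2 of WT with sucrose (0.0489). The interaction was -0.85 (SE 0.37, adjusted p = 0.117) and was called without replicate 1 of WT with sucrose (0.0359).

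CYP71B34 (AT3G26300) and CYP71B35 (AT3G26310), between CYP71B26 and CYP71B36, were called in no comparison. CYP71B34 averaged 707 ± 39.1 in FUS3 with sucrose, 709 ± 113 in FUS3 without sucrose, 714 ± 90.0 in WT with sucrose and 757 ± 107 in WT without sucrose (SD, n = 3 each). Its FUS3 difference was -0.01 with sucrose (95% interval -0.30 to 0.28) and -0.09 without (-0.38 to 0.20). CYP71B35 averaged 261 ± 63.6 in FUS3 with sucrose, 316 ± 16.8 in FUS3 without sucrose, 306 ± 15.5 in WT with sucrose and 380 ± 26.3 in WT without sucrose. Its FUS3 difference was -0.24 with sucrose (SE 0.15, adjusted p = 0.237) and was called without replicate 2 of FUS3 with sucrose (0.0367). Its sucrose difference was -0.29 in FUS3 (SE 0.15, adjusted p = 0.162), called without replicate 2 of FUS3 with sucrose (0.0229), and -0.30 in WT (SE 0.15, adjusted p = 0.182). With array medians subtracted both sucrose differences were called lower (0.0410 in FUS3 and 0.0448 in WT).

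**Figure D2:**
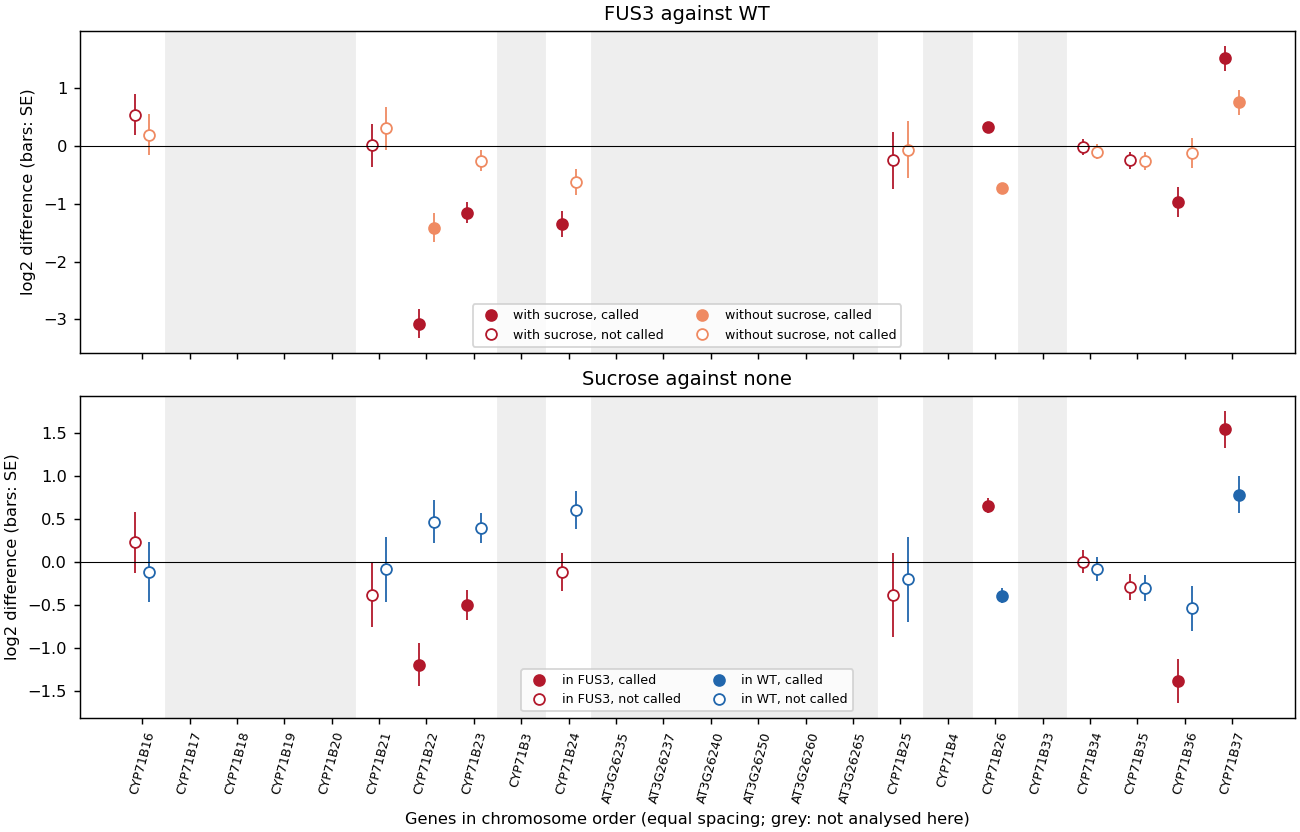
Log2 differences (bars, SE of the limma model) of the 11 measured genes of the chromosome 3 row in gene order, FUS3 against WT above and sucrose against none below; filled points were called. With sucrose, CYP71B22, CYP71B23 and CYP71B24 lie between -1.15 and -3.08 in FUS3 against WT, while CYP71B37 at the other end lies at 1.52.

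A second group of CYP71B genes lies on chromosome 1, where CYP71B27 (AT1G13070), CYP71B28 (AT1G13090) and CYP71B29 (AT1G13100) are members. CYP71B28 and CYP71B29 are neighbours and answered sucrose in opposite directions in FUS3. CYP71B28 read 380, 499 and 436 in FUS3 with sucrose, 304, 295 and 379 in FUS3 without sucrose, 483, 520 and 573 in WT with sucrose, and 330, 368 and 395 in WT without sucrose. Within each line the sucrose arrays lay above those without sucrose. The log2 difference with sucrose was 0.41 in FUS3 (SE 0.14, adjusted p = 0.0275) and 0.51 in WT (SE 0.14, adjusted p = 0.0126), and the interaction was -0.10 (95% interval -0.51 to 0.31). Both sucrose calls were lost with array medians subtracted (adjusted p = 0.165 in FUS3 and 0.0715 in WT) and with quantile normalization (0.180 and 0.0844). The call in FUS3 was also lost with the compared arrays alone (0.0601) and without replicate 1 or 2 of FUS3 without sucrose or replicate 2 or 3 of FUS3 with sucrose (0.0643 to 0.120). That in WT was lost without replicate 1 of WT without sucrose (0.0593) or replicate 3 of WT with sucrose (0.0549).

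CYP71B29 gave 163, 193 and 157 in FUS3 with sucrose, 365, 307 and 362 in FUS3 without sucrose, 213, 275 and 322 in WT with sucrose, and 429, 357 and 338 in WT without sucrose. FUS3 with sucrose was lowest and overlapped no other group, and FUS3 without sucrose overlapped both WT groups. Sucrose lowered it in FUS3 (log2 difference -0.95, SE 0.16, adjusted p = 3.25e-04). In WT the difference was -0.46 (SE 0.16, adjusted p = 0.0521), called with array medians subtracted (0.0138), with quantile normalization (0.0157) and without replicate 3 of WT with sucrose (0.0256). FUS3 against WT was -0.60 with sucrose (SE 0.16, adjusted p = 0.00961), a call lost without replicate 3 of WT with sucrose (0.0525), and -0.11 without sucrose (SE 0.16, adjusted p = 0.721).

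CYP71B5 (AT3G53280), from a trio on another part of chromosome 3 with CYP71B30P and CYP71B31, was lowered by sucrose in FUS3. It read 307, 338 and 324 in FUS3 with sucrose, 538, 454 and 559 in FUS3 without sucrose, 341, 532 and 435 in WT with sucrose, and 453, 351 and 488 in WT without sucrose. FUS3 with sucrose lay below all other arrays, and the other 3 groups overlapped. The sucrose difference was -0.65 in FUS3 (SE 0.16, adjusted p = 0.00539) and 0.01 in WT (95% interval -0.34 to 0.36). FUS3 against WT with sucrose was -0.39 (SE 0.16, adjusted p = 0.0701), which was called with quantile normalization (0.0408), with the lowest 40% of probe sets left out (0.0434) and without replicate 1 of WT with sucrose (0.0149). The interaction was -0.66 (SE 0.23, adjusted p = 0.0532), which was called without replicate 2 of FUS3 without sucrose, replicate 3 of WT without sucrose or replicate 1 of WT with sucrose (0.0146 to 0.0437), with quantile normalization (0.0493) and with the lowest 40% of probe sets left out (0.0299).

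CYP71B6 (AT2G24180, chromosome 2), which acts on indole acetonitrile in the formation of indole carboxylic acids, rose with sucrose in WT. Its signals were 1756, 1653 and 1495 in FUS3 with sucrose, 1374, 1431 and 1339 in FUS3 without sucrose, 1780, 2089 and 1554 in WT with sucrose, and 1148, 1405 and 1197 in WT without sucrose. The sucrose arrays exceeded those without sucrose within each line, and FUS3 and WT overlapped at both sucrose levels. The sucrose difference was 0.24 in FUS3 (SE 0.11, adjusted p = 0.101) and 0.52 in WT (SE 0.11, adjusted p = 0.00252). In FUS3 against WT the difference was -0.14 with sucrose (95% interval -0.37 to 0.10) and 0.15 without (-0.09 to 0.38). CYP71B38 (AT3G44250) read 35.9, 13.0 and 71.1 in FUS3 with sucrose, 57.5, 54.8 and 46.9 in FUS3 without sucrose, 29.8, 55.5 and 46.1 in WT with sucrose, and 83.3, 54.9 and 53.6 in WT without sucrose. All groups overlapped, and the gene was not called. Its sucrose difference in FUS3 was -0.44 (SE 0.33, adjusted p = 0.333), and it was called when replicate 3 of FUS3 with sucrose was left out (-0.83, adjusted p = 0.0493).

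**Figure D3:**
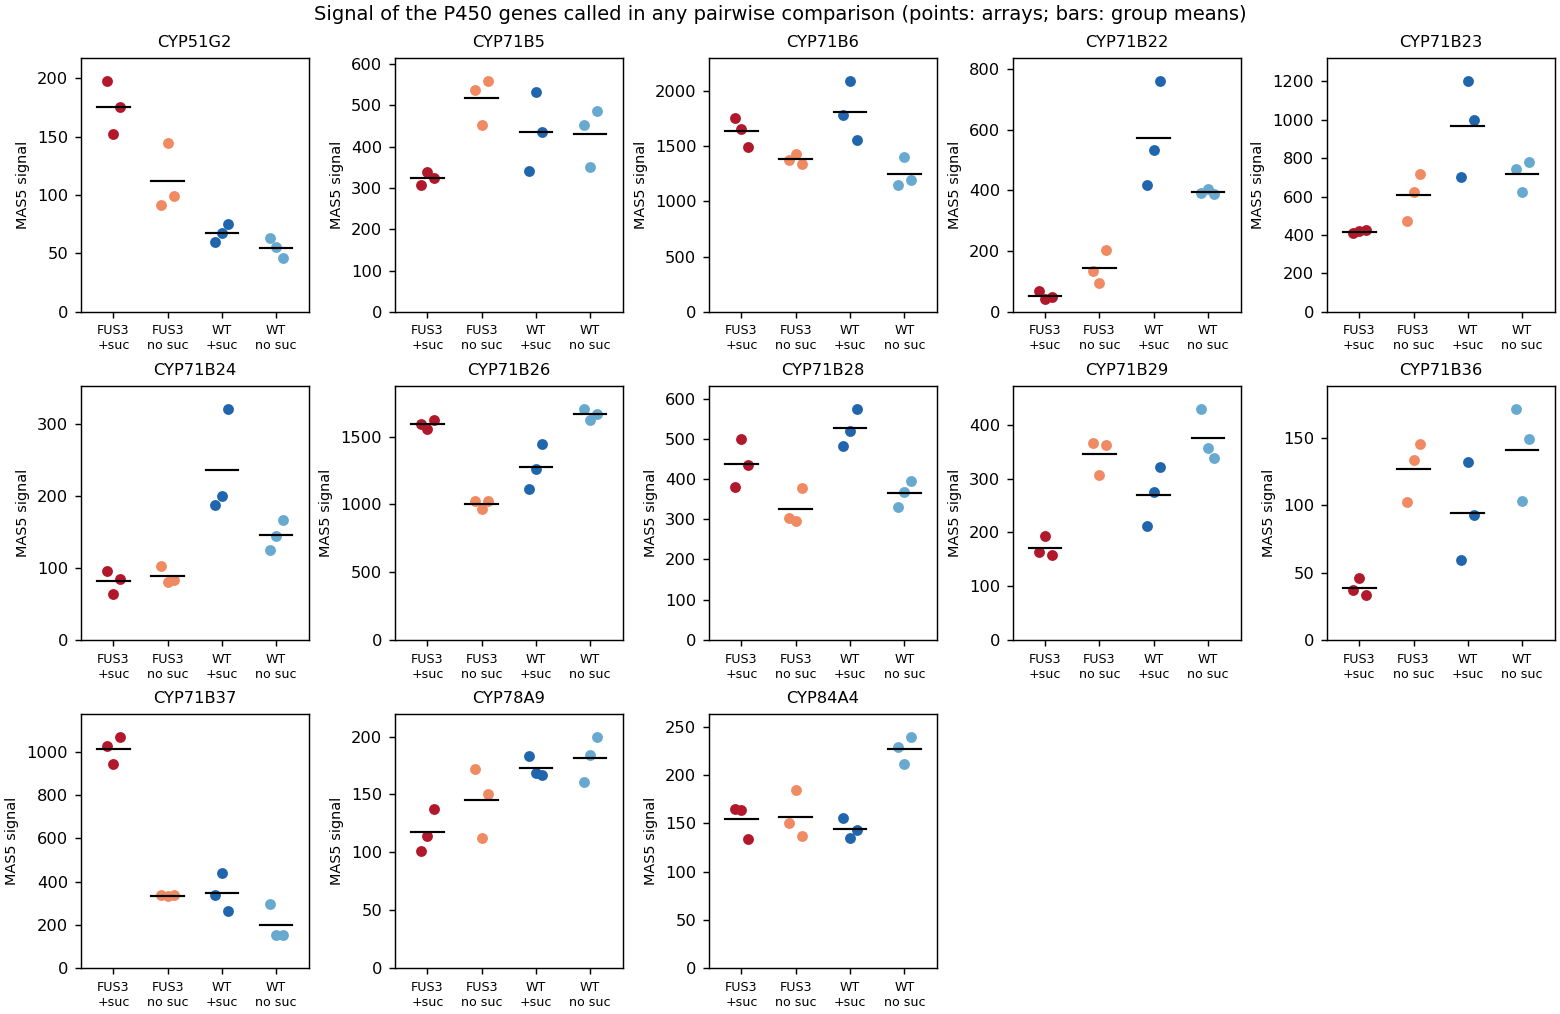
MAS5 signal (linear axis from 0) of the 13 P450 genes called in at least 1 pairwise comparison; points are single arrays, bars are means of 3. CYP71B22 is lowest in FUS3 with sucrose at 41.4 to 67.1, and CYP71B37 highest there at 943 to 1067.

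The remaining members had little signal. For 7 of the 23, all group means lay below 55.6, the lowest first quartile of any array. These were CYP79A2 and 6 CYP71B genes, CYP71B16, CYP71B21, CYP71B25, CYP71B27, CYP71B30P and CYP71B31. None was called in any comparison by limma or in the alternatives run, 0 of 7 had an unadjusted p under 0.05, and the files hold no detection calls. In the chromosome 3 row, CYP71B16 averaged 14.5 ± 11.1 in FUS3 with sucrose and 4.43 ± 6.34 in WT with sucrose (SD, n = 3 each). CYP71B21 ranged over 0.874 to 29.1 in FUS3 with sucrose and 2.02 to 14.3 in WT with sucrose. CYP71B25 averaged 12.1 ± 13.4 in FUS3 with sucrose and 18.2 ± 18.3 in WT with sucrose. The SD reached or exceeded the mean in several of these groups. CYP71B27, which RefSeq annotates as a transcribed pseudogene, averaged 22.1 ± 15.6 in FUS3 with sucrose and 18.1 ± 12.4 in WT with sucrose. CYP71B31 averaged 4.44 ± 1.79 in FUS3 with sucrose and 4.45 ± 5.86 in WT with sucrose. CYP71B30P, whose symbol marks a pseudogene although RefSeq lists it as protein coding, averaged 3.69 ± 1.26 in FUS3 with sucrose and 5.00 ± 3.08 in WT with sucrose. At such signals a fall or a small rise could not be detected. All calls therefore came from the other 16 genes, of which CYP71B34, CYP71B35 and CYP71B38 were called in no pairwise comparison.

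Setting the FUS3 effect with sucrose beside that without sorted the called genes among the 16 whose highest group mean was not below 55.6. CYP71B38 is among the 16 through WT without sucrose alone. The shares of such patterns over all probe sets are not given. CYP71B22 fell at both sucrose levels, and CYP51G2 and CYP71B37 rose at both. Without sucrose the call of CYP71B37 was lost in 8 of 20 alternatives, and that of CYP51G2 in 1 of 19. CYP71B26 rose with sucrose and fell without. CYP71B23, CYP71B24, CYP71B29, CYP71B36 and CYP78A9 were called lower with sucrose and not called without, and CYP84A4 the reverse. Of these 10 genes the interaction was called for CYP71B22, CYP71B23 and CYP71B26 alone. For the other 7, a difference in FUS3 effect between sucrose levels was therefore not shown. The CYP71B genes as a group had a median FUS3 difference of -0.21 with sucrose and -0.12 without, over 19 genes, against 0.01 and 0.02 over all probe sets. These medians include the 6 CYP71B genes with little signal, and a shift of the subfamily as a whole was not tested.

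**Figure D4:**
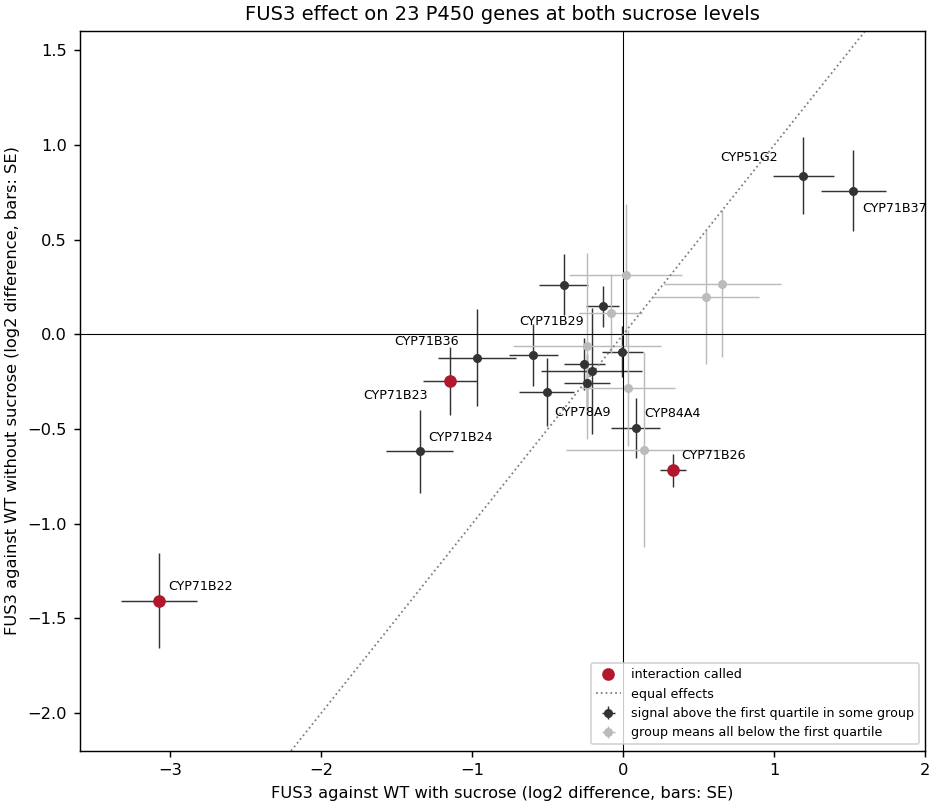
FUS3 effect (log2 difference between FUS3 and WT, bars SE) with sucrose on the horizontal axis and without sucrose on the vertical axis for the 23 genes; red points have a called interaction. CYP71B22 lies at -3.08 and -1.41, and CYP71B26 is at 0.33 with sucrose and -0.72 without.

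Splits of the sucrose calls moved with scaling. Subtracting array medians shifted the median of all probe sets by -0.15 in both sucrose comparisons. With it, 2 genes were called higher and 6 lower with sucrose in FUS3, against 14.3% and 23.5% of all probe sets. In WT 2 were called higher and 4 lower, against 10.3% and 18.6%. Quantile normalization gave 2 higher and 6 lower with sucrose in FUS3, against 18.6% and 20.0% of all probe sets, and 1 higher and 4 lower in WT, against 13.1% and 12.3%. For FUS3 against WT without sucrose it gave 1 higher and 4 lower, against 8.31% and 7.32%. Of the named sucrose changes, those of CYP71B28 in both lines, CYP51G2 in FUS3 and CYP71B37 in WT were the ones lost under one or both scalings.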

How the data were processed

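Transcript levels were measured on 12 ATH1 arrays, 3 for each of 4 groups. The authors ran MAS5 in Affymetrix Expression Console, per the submitters' processing notes, and no version is named there. Each deposited value is a linear intensity, not logged. Groups were taken from the sample titles.

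The 64 control probe sets were left out, and 22746 were tested. After 16 was added, log2 signals were fitted with limma 3.58.1 in R 4.3.3 as 4 group means over all 12 arrays, with variances moderated along a trend. Benjamini-Hochberg adjustment ran over all probe sets of a comparison. SE and 95% intervals are those of the moderated model. Plots used Python 3.11.15 and matplotlib 3.10.9.

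Genes were named from the array's probe table, and loci, annotation and gene order from RefSeq (TAIR10.1). No coordinates are given, since the deposited table names no build. CYP718, whose symbol has no subfamily letter, and 2 probe sets that join a P450 symbol with another gene were left out. Members and lists were chosen with earlier results of these data known. The rule named members with a known role and, of the others, up to 5 called genes with the largest change in each direction and the 3 with the highest mean signal. The remaining members were named, after their values were seen, to account for all 23. Of 102 loci in 8 lists of partner genes 5 were measured, and 5 lists had none, among them that of P450 reductases and cytochrome b5. HCT and LCYB were the sole measured genes of the lists for phenylpropanoids and for carotenoids and sterols.

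On simulated data with 22746 probe sets, changes were planted only in probe sets of higher mean signal, with normally distributed noise. For FUS3 against WT with sucrose 94 of 100 changes of log2 1 and 100 of 100 of log2 2 were recovered, with 10 false calls. For the interaction 79 and 99 were recovered, with 16 false calls. These rates do not cover genes below the planted range, among them the called CYP51G2, CYP71B24, CYP71B36, CYP78A9 and CYP84A4. Alternatives were 1 or 64 added, quantile normalization, array medians subtracted, the lowest 40% of probe sets left out, the compared arrays alone, a replicate block, no variance trend, and each array left out.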

Additional observations from a re-analysis of the deposited data

Results flagged for a closer look

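The FUS3 effect differed between sucrose levels for 3 P450 genes, by the interaction term of the limma model, where 23.1% of all probe sets had a called interaction. CYP71B26 had an interaction of 1.05 (SE 0.12, adjusted p = 2.82e-05): FUS3 stood above WT with sucrose (1593 ± 34.1 against 1274 ± 166) and below it without (1005 ± 32.4 against 1664 ± 40.1; SD, n = 3 each). CYP71B22 had -1.67 (SE 0.36, adjusted p = 0.00349), with 52.5 ± 13.2 in FUS3 against 571 ± 173 in WT with sucrose, and 145 ± 55.5 in FUS3 against 395 ± 8.23 in WT without. CYP71B23 had -0.90 (SE 0.25, adjusted p = 0.0185), with 418 ± 6.79 in FUS3 against 968 ± 250 in WT with sucrose, and 607 ± 124 in FUS3 against 717 ± 83.2 in WT without. The interaction was also called for all 5 measured leaf photosynthesis markers (negative), all 5 seed markers (positive), the guard cell marker FAMA (-1.52, adjusted p = 0.00201) and the trichome marker TRY (-1.94, adjusted p = 7.04e-04) in limma. The 3 measured root markers had interactions of -0.07 (EXPA7), -0.27 (EXPA18) and 0.55 (PRX72), with adjusted p-values of 0.0884 and above. The part of these marker genes in the 3 results was not tested.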

How the results depend on the processing

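Of 31 calls on P450 genes over the 5 comparisons, 20 held in every alternative that keeps the gene, 11 were lost in at least 1, and none reversed. In 15 further cases a difference that was not called passed in at least 1 alternative. The count of called genes for FUS3 against WT without sucrose, 5 as reported, was 2 with the lowest 40% of probe sets left out, which keeps 9 of the 23 genes, 3 with the compared arrays alone, and 3 to 5 with single arrays left out. For FUS3 against WT with sucrose, 9 as reported, it was 5 with the lowest 40% left out. In both comparisons no call on a gene kept by that filter was lost, and with sucrose CYP71B5 was gained (adjusted p = 0.0434 in limma). The lower counts thus came from genes that the filter removed. Of the called genes these were CYP51G2 and CYP71B22 in both comparisons, CYP84A4 without sucrose, and CYP71B24, CYP71B36 and CYP78A9 with sucrose. For the interaction, 3 as reported, it was 2 to 5 with single arrays left out. The other counts stayed within 1.5 times of those reported. Deviations of same-numbered arrays correlated at -0.01 to 0.11, with 1 of 18 pairs above 0.1. Those of differently numbered arrays correlated at -0.09 to 0.05. The main model did not pair arrays by number, though a weak shared effect of the number is possible. A replicate block gave 4 calls for FUS3 against WT without sucrose, 9 with sucrose, 10 and 5 for sucrose in FUS3 and in WT, and 3 for the interaction. Under that block the call of CYP84A4 without sucrose was lost (adjusted p = 0.0594) and CYP71B6 was called higher with sucrose in FUS3 (0.0481). Another probe set per gene could not be tried, since each gene had 1. Shares of all probe sets called, kept or lost under the alternatives in this section are not given. The counts therefore show nothing particular to P450 genes. Genes with all 4 group means below 55.6 allow no statement on falls or small rises, and a difference that involves 1 group below it is uncertain in size. With 3 arrays a group several calls stood near the threshold. Of the FUS3 calls, that of CYP84A4 without sucrose was lost in 14 of 19 alternatives. Those of CYP71B37 without sucrose and CYP78A9 with sucrose were lost in 8 of 20 and 5 of 19. Of the sucrose calls in FUS3, those of CYP51G2, CYP71B28 and CYP71B23 were lost in 8 of 19, 7 of 20 and 6 of 20. In WT the sucrose calls of CYP71B37 and CYP71B28 were lost in 5 of 20 and 4 of 20.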

Other observations

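CYP718 (AT2G42850), a P450 gene outside the 23 because its symbol has no subfamily letter, was looked at after its values were seen. It read 118, 194 and 145 in FUS3 with sucrose, 18.2, 118 and 6.34 in FUS3 without sucrose, 63.9, 71.5 and 47.7 in WT with sucrose, and 14.5, 13.7 and 12.7 in WT without sucrose. Replicate 2 of FUS3 without sucrose lay just below the lowest reading of FUS3 with sucrose and far above the other arrays of its group. Sucrose raised it by a log2 difference of 1.82 in FUS3 (SE 0.47, adjusted p = 0.00669 in limma), called in 19 of 19 alternatives (adjusted p up to 0.0339). In WT the difference was 1.37 (SE 0.47, adjusted p = 0.0465), which was called in 5 of 19 alternatives (up to 0.119). Of all probe sets 21.8% were called higher with sucrose in FUS3 and 15.9% in WT. Both means without sucrose, 47.4 in FUS3 and 13.6 in WT, lay below 55.6, so the sizes are uncertain. FUS3 against WT was 1.12 with sucrose (SE 0.47, adjusted p = 0.0784), called in 5 of 19 alternatives. Without sucrose it was 0.66 (SE 0.47, adjusted p = 0.401).

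LCYB, the lycopene cyclase gene and the one measured member of the carotenoid and sterol list, fell in FUS3 with sucrose. It averaged 1465 ± 42.1 in FUS3 with sucrose and 2543 ± 91.3 in WT with sucrose (SD, n = 3 each), a log2 difference of -0.79 (SE 0.06, adjusted p = 1.64e-07). Without sucrose it averaged 2824 ± 62.2 in FUS3 and 2733 ± 44.9 in WT, a difference of 0.05 (SE 0.06, adjusted p = 0.681).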
